A study of Mus musculus with 12 samples.

Results

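The genes described here carry glucose into the cell and break it down: the glucose transporters, the enzymes of glycolysis, the lactate dehydrogenases and lactate transporters, the pyruvate dehydrogenase subunit Pdha1 with its kinases, and the enzymes of the pentose phosphate pathway. The 30 genes were chosen by name, from knowledge of the pathways and with earlier results of these data known. Of these, 26 had a probe set of their own, of 18193 genes measured in all. Eno1, Gpi1 and G6pdx have no probe set in the probe table used, and Gapdh has only array-control probe sets and probe sets shared with other genes, so these 4 were not analysed here.

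Expression was measured on Affymetrix mouse arrays, 1 array per sample, in medulloblastomas (MBs) of 8 mice, in granule neural progenitors (GNPs) of 2 mice and in whole cerebellum of 2 mice. MBs are tumors of the cerebellum. The MBs arose in Nestin-Cre p53-/- mice with a conditional Xrcc4 allele, in which Cre driven by the Nestin promoter inactivates Xrcc4 in neural progenitor cells of animals that lack p53 throughout. XRCC4 joins broken DNA ends, and p53 is the main tumor suppressor that responds to DNA damage. The GNPs and the cerebellum came from control animals that the study describes as matched in age and genotype. Their ages and alleles sample by sample are not given in the sources used here. The labels call the MBs tumor tissue, while the methods list 6 of the 8 (MB_630, MB_794, MB_1197, MB_1206, MB_1207 and MB_1224) among cultured MB cells, so which material went onto those arrays cannot be told apart. No source says whether samples shared a litter or a processing day, and p-values measure the spread between these samples.

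Glycolysis splits glucose into pyruvate, and lactate dehydrogenase turns pyruvate into lactate, which leaves the cell through monocarboxylate transporters. Most steps can be run by one of several related enzymes, each from its own gene and each favored by different tissues: hexokinase 1 is the usual form of the adult brain and hexokinase 2 that of muscle, fat and many tumors. Proliferating granule progenitors are known for high aerobic glycolysis driven by Sonic hedgehog signaling. The pentose phosphate pathway branches off after the hexokinase step and yields NADPH and ribose for nucleotides.

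Levels are on a log2 scale, where a difference of 1 is a doubling, and the lowest value of the table, the floor, was 2.2. Values under 2.7 are called close to the floor. Levels of different genes were not compared, since each probe set has its own response. Samples are called by their labels, a group and a mouse number (MB_1207). The number of arrays limits the precision, above all with 2 samples each of GNPs and cerebellum. Correlations over all genes were 0.97 to 0.99 between MBs, and the 2 GNP samples and the 2 cerebellum samples were each alike at 0.99. The array controls measure RNA length by the signal at the 3′ end minus that at the 5′ end: this was 2.93 in tumor MB_706. The remaining 7 MBs had 0.56 to 0.82, the GNPs 0.15 and 0.23 and the cerebellum samples 0.48 and 0.52. Tumor MB_706 therefore stands apart, and leaving it out changed none of the counts of the 26 genes past the test. Every MB was also above every normal sample in this measure, and its part in the MB comparisons was not tested.

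Marker genes of granule progenitors averaged 9.83 to 10.58 in MBs, 6.88 and 7.05 in GNPs and 3.74 and 3.76 in cerebellum. The proliferation marker Mki67 was close to the floor in cerebellum, and Gli1, a target of hedgehog signaling, was close to the floor in GNPs. Other cell types also differed between the groups. All 7 microglia markers were higher in MBs than in GNPs and 5 of 7 were higher than in cerebellum, with mean levels of 7.39 to 8.62 in MBs, 3.93 and 5.12 in GNPs and 5.46 and 5.70 in cerebellum. Markers of mature granule neurons averaged 6.62 to 9.19 in MBs, 8.11 and 8.23 in GNPs and 12.35 and 12.36 in cerebellum, and 6 of 7 were lower in MBs than in cerebellum. All 4 measured markers of inhibitory interneurons were lower in MBs than in GNPs and than in cerebellum. They averaged 2.53 to 4.06 in MBs, 5.59 and 5.67 in GNPs and 7.19 and 7.23 in cerebellum. Of the blood markers, Hba-a1 and Alas2 were close to the floor in all samples. The part of these cell types in the results below was not tested, and in bulk samples fewer cells of a type cannot be told apart from less RNA per cell.

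More of these transcripts were lower than higher in MBs, by count against each normal tissue, and hexokinase 2 was higher in MBs by the widest margin. Compared with GNPs, 3 of the 26 genes rose in MBs (Hk2, Pfkfb3 and Slc16a1), 13 fell (Hk1, Pfkm, Pfkp, Aldoa, Tpi1, Pgk1, Eno2, Ldhb, Slc2a3, Pdha1, Pgd, Tkt and Taldo1) and 10 did not pass the test (limma, adjusted p under 0.05). Over all genes, 18.7% rose and 18.6% fell. Compared with cerebellum, 3 rose (Hk2, Pfkfb3 and Pgd), 16 fell (Hk1, Pfkl, Pfkm, Pfkp, Aldoa, Aldoc, Tpi1, Pgk1, Pgam1, Eno2, Pkm, Ldhb, Slc2a1, Slc2a3, Pdk2 and Pdha1) and 7 did not pass, against 22.2% of all genes rising and 21.8% falling. Without regard to the test, all MBs lay above both GNP samples for 4 genes (15.4%, against 21.2% of all genes) and below both for 13 (50%, against 20.5%), and above both cerebellum samples for 4 (24.3% of all genes) and below both for 16 (22.6%). The share that fell was thus 50% and 61.5% of the 26 genes. Many genes of the table are not expressed in any sample, and among the 9905 genes with a level above 5 in at least 2 samples the share that fell was 26.8% against GNPs and 29.4% against cerebellum.

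The median log2 difference of the 26 genes was -0.49 between MBs and GNPs and -1.13 between MBs and cerebellum, while the median over all genes was 0.0 in both comparisons, and 0.07 and 0.15 over the genes above 5. The same 8 MBs enter both comparisons. The count against GNPs depends on both GNP samples: without CGNP_2705, 1 gene rose and 8 fell, and without CGNP_2698, 2 rose and 9 fell. With every array shifted to the same median, the median difference between MBs and GNPs was -0.12 over all genes and -0.61 over the 26 genes.

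**Figure D1:**
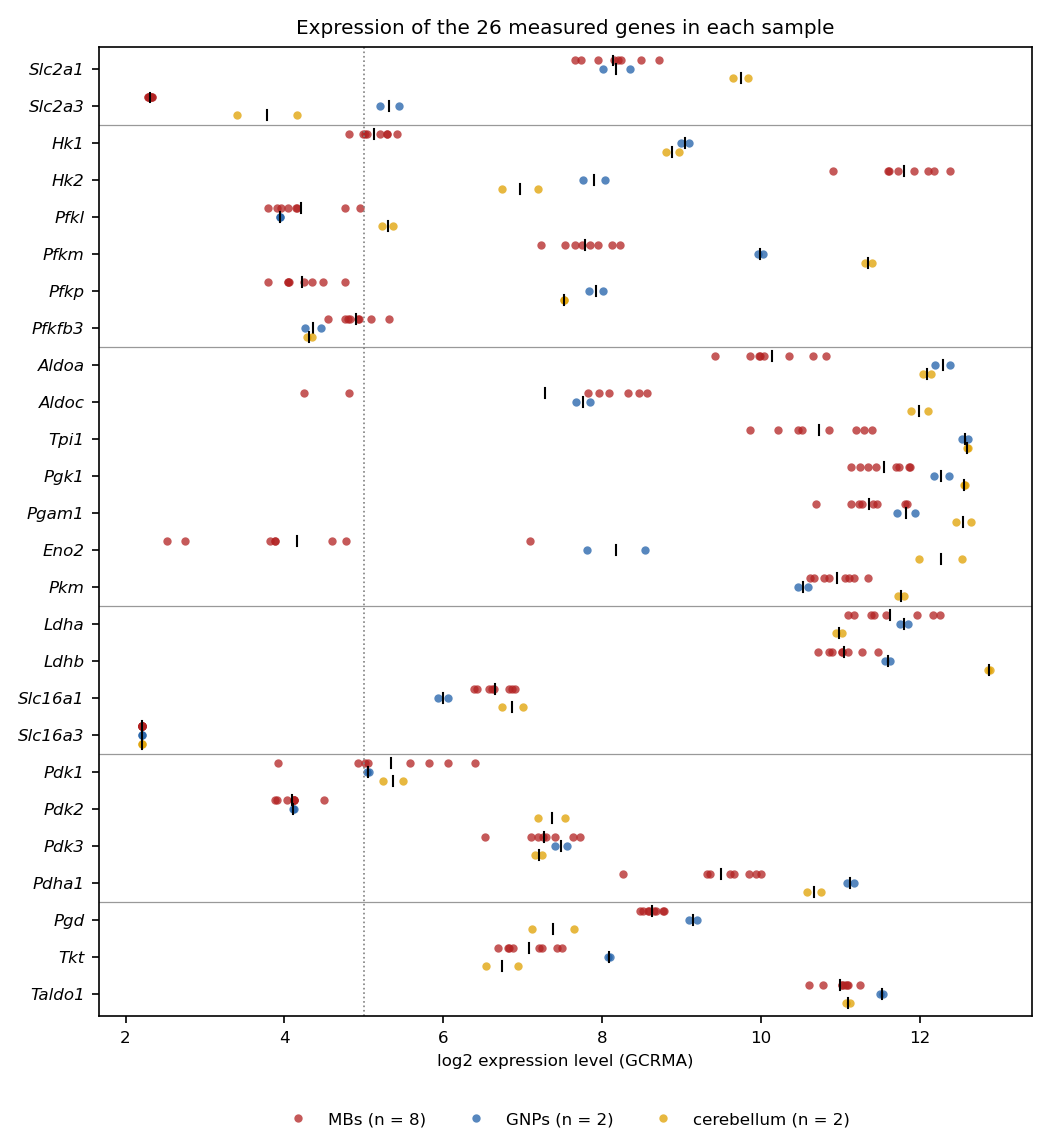
Log2 expression level of the 26 measured genes (rows) in each sample, MBs (red, n = 8), GNPs (blue, n = 2) and cerebellum (yellow, n = 2). Points are samples, short black lines are group means, the dotted line marks a level of 5, and horizontal lines separate transporters, upper glycolysis, lower glycolysis, lactate, pyruvate dehydrogenase and pentose phosphate genes. Hk2 lies above 10 in every MB and below 9 in every normal sample. Hk1 is lower in MBs (4.82 to 5.42) than in the normal samples (8.80 to 9.09).

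The hexokinases, which trap glucose in the cell by phosphorylating it, changed in opposite directions. Hk2 had levels of 10.92 (lowest), 11.83 (median) and 12.38 (highest) over the 8 MBs, against 7.76 and 8.04 in GNPs and 6.74 and 7.19 in cerebellum. Every MB was far above every normal sample. The log2 difference was 3.91 ± 0.32 (SE) between MBs and GNPs, a 15-fold rise (adjusted p = 9.64e-06), and 4.84 ± 0.32 between MBs and cerebellum, a 28.6-fold rise (adjusted p = 1.23e-06).

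Hk1 had levels of 4.82 (lowest), 5.13 (median) and 5.42 (highest) in MBs, against 9.09 and 9.00 in GNPs and 8.97 and 8.80 in cerebellum. No MB came near a normal sample, and the MBs lay within 0.60 of each other. Its log2 difference was -3.91 ± 0.14 (SE) against GNPs (adjusted p = 3.37e-08) and -3.75 ± 0.14 against cerebellum (adjusted p = 1.93e-08). Both Hk1 probe sets were lower in MBs than in GNPs, with log2 differences of -4.70 and -3.13. One of these, 1420901_a_at, averaged 2.93 in MBs and is near the bottom of the scale there, so its difference may be understated.

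The log2 ratio of Hk2 to Hk1 within an array combines both changes. It was 5.63 to 7.39 in the 8 MBs, with a median of 6.72, against -1.33 and -0.96 in GNPs and -2.22 and -1.61 in cerebellum. The mean ratio differed by 7.82 between MBs and GNPs and by 8.59 between MBs and cerebellum (exact permutation test, two-sided, p = 0.0222 for each, the smallest that 8 against 2 samples allow, and 0.04 adjusted over the 18 ratio tests). No other pair of related genes differed by as much in either comparison.

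The promoters of both hexokinases and of Slc16a1, the lactate transporter gene that rose in MBs against GNPs, are shown because the hexokinases changed in opposite directions and Slc16a1 had the second largest rise against GNPs. The windows run from 250 bases before to 50 after a RefSeq transcription start (GRCm38.p6), 5′ to 3′ on the gene's strand, and Hk1 has 2 listed starts. Capitals mark ACGTG, the core of sites bound by hypoxia-inducible factors and, as CACGTG, by Myc family proteins, and GCGTG, each on either strand.
Hk2, chr6:82774405-82774704, minus strand: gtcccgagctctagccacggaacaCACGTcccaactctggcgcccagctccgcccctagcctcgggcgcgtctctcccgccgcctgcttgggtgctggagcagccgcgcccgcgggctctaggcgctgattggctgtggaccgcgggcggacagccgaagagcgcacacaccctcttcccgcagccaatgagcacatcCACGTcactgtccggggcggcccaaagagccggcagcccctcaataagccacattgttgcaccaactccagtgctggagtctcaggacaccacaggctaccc
Hk1 upstream start, chr10:62379859-62380158, minus strand: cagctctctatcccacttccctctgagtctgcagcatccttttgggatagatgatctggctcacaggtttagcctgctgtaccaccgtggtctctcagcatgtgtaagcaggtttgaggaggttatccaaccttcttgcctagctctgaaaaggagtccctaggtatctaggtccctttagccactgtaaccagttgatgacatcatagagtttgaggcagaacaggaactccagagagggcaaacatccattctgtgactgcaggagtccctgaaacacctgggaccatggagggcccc
Hk1 downstream start, chr10:62340372-62340671, minus strand: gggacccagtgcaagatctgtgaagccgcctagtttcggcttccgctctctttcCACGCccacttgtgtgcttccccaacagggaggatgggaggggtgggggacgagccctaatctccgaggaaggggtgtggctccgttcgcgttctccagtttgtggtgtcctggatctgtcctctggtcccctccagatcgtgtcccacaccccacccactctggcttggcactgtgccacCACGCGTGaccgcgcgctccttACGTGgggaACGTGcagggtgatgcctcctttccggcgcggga
Slc16a1, chr3:104638414-104638713, plus strand: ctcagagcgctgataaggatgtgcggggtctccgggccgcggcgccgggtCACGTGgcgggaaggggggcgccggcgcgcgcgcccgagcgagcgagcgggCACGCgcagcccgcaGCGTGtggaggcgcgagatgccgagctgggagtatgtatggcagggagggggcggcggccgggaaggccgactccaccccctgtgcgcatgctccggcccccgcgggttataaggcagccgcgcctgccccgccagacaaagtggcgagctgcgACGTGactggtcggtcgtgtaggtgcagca

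Of the 30 genes, 29 had a promoter window in the table, and Slc2a3 is named only. CACGTG was found in 5 of them (Ldha, Slc16a1, Pfkm, Pfkfb3 and Pdk2), or 17.2%, against 8.09% of the 27025 genes with a window. ACGTG was found in 17 (58.6%, against 21.8% of genes) and GCGTG in 20 (69.0%, against 35.2%). Every CACGTG also counts as ACGTG. Among the 8084 genes with a window and a level above 5 in at least 2 samples the shares were 11.9%, 30% and 57.7%. Genes with ACGTG were on both sides of the comparison: Hk2 holds it 2 times and rose, and the downstream start of Hk1 holds it 2 times and fell. A match is a description of letters and not of binding.

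Phosphofructokinase, which commits fructose phosphate to glycolysis, is built from muscle (Pfkm), platelet (Pfkp) and liver (Pfkl) subunits. Pfkm had levels of 7.23 (lowest), 7.80 (median) and 8.23 (highest) in MBs, against 9.96 and 10.03 in GNPs and 11.40 and 11.31 in cerebellum. Pfkp had levels of 3.79, 4.15 and 4.77 in MBs (lowest, median and highest), against 7.83 and 8.01 in GNPs and 7.53 and 7.52 in cerebellum. The MBs were the lowest samples for both, without overlap.

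Pfkm fell by 2.20 on the log2 scale against GNPs (SE 0.22, adjusted p = 3.49e-05) and by 3.56 against cerebellum (adjusted p = 7.13e-07). Pfkp fell by 3.70 (SE 0.21, adjusted p = 8.05e-07) and by 3.30 (adjusted p = 8.59e-07). Its best-detected probe set, 1416069_at, averaged 7.46 in MBs and fell by 3.28 and by 3.35, while 1430634_a_at averaged 2.34 in MBs. Between GNPs and cerebellum the 3 Pfkp probe sets disagreed, from -0.47 to 1.74.

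Pfkl, the remaining subunit, was read at low levels: 3.79, 4.10 and 4.95 in MBs (lowest, median and highest), against 3.94 and 3.94 in GNPs and 5.37 and 5.24 in cerebellum. MBs overlapped GNPs (difference 0.27 ± 0.28, adjusted p = 0.582) and lay below cerebellum (-1.09 ± 0.28, adjusted p = 0.0103). The difference from cerebellum lost its significance without either cerebellum sample (adjusted p = 0.0844 without WC_2646 and 0.0530 without WC_2647). The Pfkl probe set 1453541_at averaged 2.35 in MBs, 2.21 in GNPs and 2.35 in cerebellum and dilutes the mean. The log2 differences of 1439148_a_at and 1450269_a_at were -1.42 and -1.84 against cerebellum and 0.63 and 0.05 against GNPs. Tumors MB_1207 (4.95) and MB_1224 (4.76) were the highest MBs.

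The ratio of Pfkl to Pfkm within an array was -4.09 to -2.47 in MBs, with a median of -3.77, against -6.02 and -6.08 in GNPs and -6.03 and -6.08 in cerebellum. It was higher by 2.47 in MBs than in GNPs and by 2.48 than in cerebellum (exact permutation p = 0.0222 each, adjusted p = 0.04). Against GNPs, Pfkl itself differed by 0.27 and Pfkm by -2.20, so there the ratio mainly repeats the fall of Pfkm. The ratio of Pfkp to Pfkm was -4.34 to -2.74 in MBs, against -2.13 and -2.02 in GNPs and -3.87 and -3.79 in cerebellum. It was lower than in GNPs (-1.497, exact permutation p = 0.0222, adjusted p = 0.04) and overlapped with cerebellum (difference 0.26, exact permutation p = 0.556).

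Pfkfb3, which makes the fructose 2,6-bisphosphate that activates phosphofructokinase, was modestly higher in MBs. Its level was 4.56, 4.88 and 5.32 in MBs (lowest, median and highest), against 4.46 and 4.26 in GNPs and 4.28 and 4.34 in cerebellum. All MBs were above all normal samples, and the log2 difference was 0.55 ± 0.16 (SE) against GNPs (adjusted p = 0.022) and 0.59 ± 0.16 against cerebellum (adjusted p = 0.0126). Its probe set 1456676_a_at was at the floor in all 12 samples and dilutes the mean: the other, 1416432_at, rose by 1.09 and 1.18. Neither rise held without one of the normal samples of its comparison (adjusted p = 0.0578 without CGNP_2698, 0.194 without CGNP_2705, 0.092 without WC_2646 and 0.0635 without WC_2647). The rise over GNPs was also lost with quantile scaling (0.43, adjusted p = 0.0919) and with every array shifted to the same median (0.43, adjusted p = 0.0936).

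**Figure D2:**
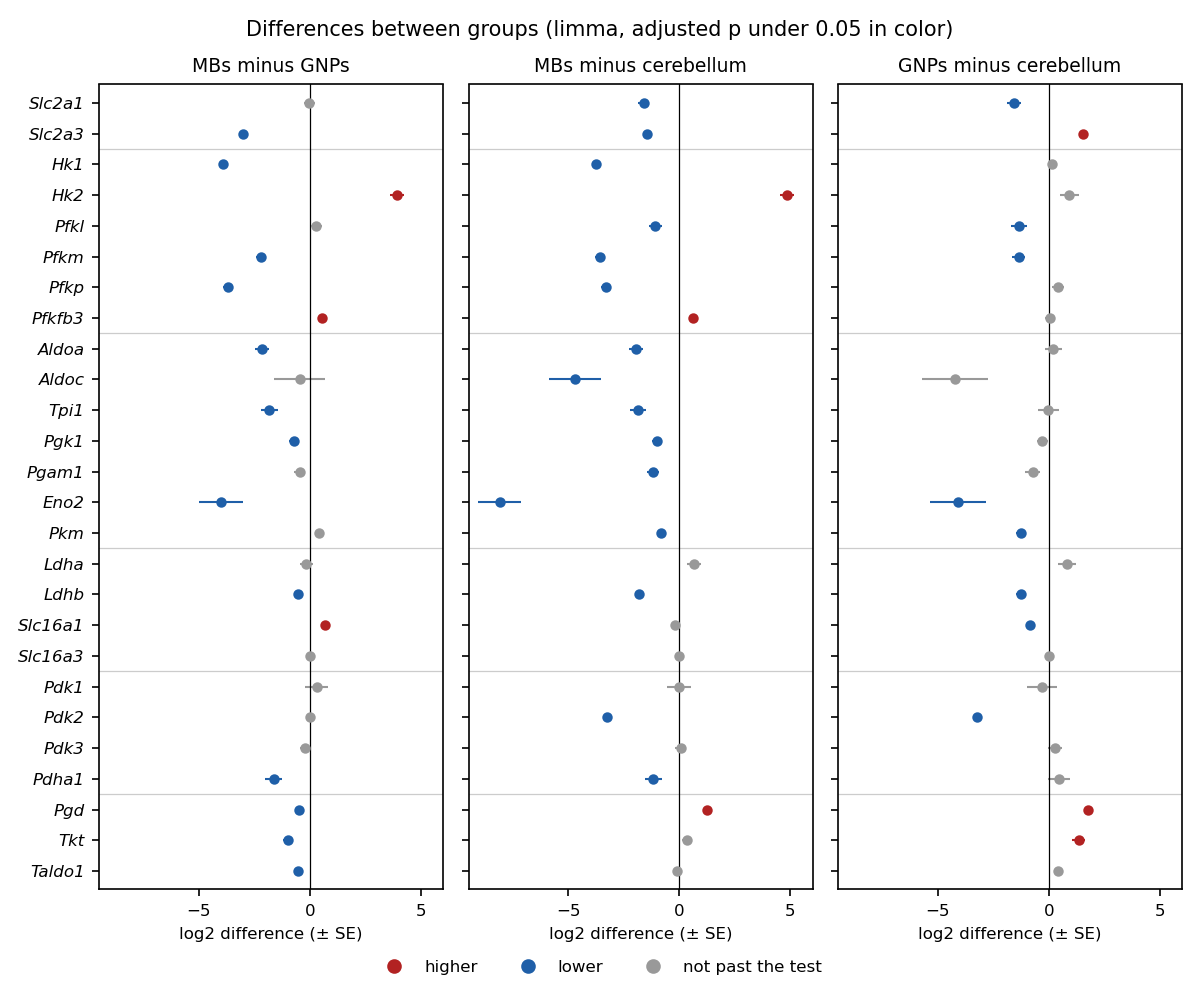
Log2 differences (x axis, points, with bars of 1 SE) of the 26 genes between MBs and GNPs, MBs and cerebellum, and GNPs and cerebellum. Red points rose and blue points fell at an adjusted p under 0.05 in limma, and gray points did not pass. Hk2 (3.91 and 4.84) stands far right of 0 in the first 2 panels and Eno2 (-4.01 and -8.10) far left.

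In the lower part of glycolysis, no measured gene rose, and Gapdh and Eno1 were not measured. Against GNPs, 4 of 7 fell (Aldoa, Tpi1, Pgk1 and Eno2), and against cerebellum all 7 fell, Aldoc, Pgam1 and Pkm included. The aldolases cut fructose bisphosphate into trioses. Aldoa, the form of muscle and most other tissues, had levels of 9.43, 10.02 and 10.82 in MBs (lowest, median and highest), against 12.20 and 12.38 in GNPs and 12.15 and 12.04 in cerebellum. The MBs lay more than 1 below all normal samples, with log2 differences of -2.15 ± 0.31 (adjusted p = 0.00035) and -1.95 ± 0.31 (adjusted p = 0.000482). All 5 Aldoa probe sets carry the suffix x, which marks a possible match to other transcripts, so the Aldoa values rest on these alone.

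Aldoc, the aldolase of astrocytes and Purkinje cells, split the tumors. It was 4.25 in tumor MB_1207 and 4.82 in tumor MB_1224, but 7.82 to 8.57 in the other 6 MBs, against 7.67 and 7.86 in GNPs and 11.89 and 12.10 in cerebellum. MBs thus lay on both sides of GNPs (difference -0.47 ± 1.17, adjusted p = 0.913) and below cerebellum (-4.71 ± 1.17, adjusted p = 0.00798). Without WC_2646 or WC_2647 the adjusted p was 0.0524 or 0.0612. The mean of the astroglia markers was lowest in the same tumors, at 5.85 in tumor MB_1207 and 6.65 in tumor MB_1224. It was 7.07 to 7.95 in the other 6 MBs, against 7.45 and 7.66 in GNPs and 8.76 and 8.70 in cerebellum. Single markers did not all follow: in tumor MB_1224, Sox9, Gfap and Gdf10 lay within the range of the other 6 MBs. None of the 8 astroglia markers was close to the floor in any group. Their part in the Aldoc values was not tested.

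The ratio of Aldoa to Aldoc followed: 6.10 and 5.84 in tumors MB_1207 and MB_1224 and 0.86 to 2.73 in the other MBs, against 4.53 and 4.53 in GNPs and 0.26 and -0.06 in cerebellum. The MBs overlapped GNPs (difference -1.68, exact permutation p = 0.333) and were all above cerebellum (difference 2.76), a difference that did not hold after adjustment (exact permutation p = 0.0444, adjusted p = 0.0727).

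Eno2 had the largest fall of the 26 genes in both comparisons. The related Eno1 was not measured, so no ratio to it could be formed. Eno2 encodes the neuronal form of enolase, which makes phosphoenolpyruvate. Its level was 2.52, 3.88 and 7.09 in MBs (lowest, median and highest), against 7.81 and 8.54 in GNPs and 12.54 and 11.99 in cerebellum. The log2 difference was -4.01 ± 0.98 against GNPs (adjusted p = 0.00868) and -8.10 ± 0.98 against cerebellum (adjusted p = 7.78e-05). The difference from GNPs did not pass without CGNP_2705 (-3.65, adjusted p = 0.085).

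Tumors MB_1207 (2.52) and MB_1224 (2.75) were again the lowest for Eno2, and tumor MB_630 (7.09) was the highest, well above the next tumor at 4.78. The means of the neuronal marker lists had the same order at the ends. Single markers did not all follow: Cbln1 was highest in tumor MB_1207, Rbfox3 in tumor MB_1224 and Pvalb in tumor MB_1206. Purkinje cell markers averaged 3.86 in tumor MB_1207, 4.07 in tumor MB_1224, 4.67 to 5.83 in 5 other MBs and 7.41 in tumor MB_630, against 5.61 and 5.39 in GNPs and 11.53 and 11.65 in cerebellum. Mature granule neuron markers were also highest in tumor MB_630 (9.19) and lowest in tumor MB_1207 (6.62). The part of neurons in the Eno2 values was not tested.

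Tpi1, which interconverts the trioses, was 9.87, 10.69 and 11.41 in MBs (lowest, median and highest), against 12.54 and 12.61 in GNPs and 12.61 and 12.60 in cerebellum. Its log2 difference was -1.84 ± 0.38 (SE) against GNPs (adjusted p = 0.0032) and -1.87 ± 0.38 against cerebellum (adjusted p = 0.00225). Pgk1, which makes the first ATP of the pathway, was read from 1417864_at alone. Probe sets 1438640_x_at and 1439435_x_at, left out for suffix x, had log2 differences of -0.28 and -0.45 against GNPs and -0.38 and -0.56 against cerebellum. By 1417864_at, Pgk1 ranged over 11.13 to 11.88 in MBs, against 12.18 and 12.37 in GNPs and 12.56 and 12.57 in cerebellum. It fell by 0.73 (adjusted p = 0.0153) and by 1.01 (adjusted p = 0.00191), and the first of these did not hold without CGNP_2698 (adjusted p = 0.0539) or CGNP_2705 (adjusted p = 0.137).

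Pgam1, the phosphoglycerate mutase, ranged over 10.70 to 11.84 in MBs, against 11.94 and 11.72 in GNPs and 12.65 and 12.46 in cerebellum. It overlapped GNPs (-0.47 ± 0.26, adjusted p = 0.2) and fell by 1.19 against cerebellum (adjusted p = 0.00349). Pkm, the pyruvate kinase of brain and tumors, ranged over 10.63 to 11.36 in MBs, against 10.47 and 10.59 in GNPs and 11.73 and 11.80 in cerebellum. Every MB was above both GNP samples, by less than passed the test (0.42 ± 0.18, adjusted p = 0.0889, but 0.0462 with quantile scaling), and below cerebellum (-0.81 ± 0.18, adjusted p = 0.00376). Its only probe set, 1417308_at, was not placed on the exons that separate the M1 and M2 forms, so these were not told apart.

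Lactate dehydrogenase is built from Ldha subunits, which favor lactate formation, and Ldhb subunits, which favor its use. Ldha had levels of 11.10, 11.50 and 12.26 in MBs (lowest, median and highest), against 11.75 and 11.85 in GNPs and 11.02 and 10.94 in cerebellum. The MBs spread around the GNPs (-0.17 ± 0.30, adjusted p = 0.837) and all lay above cerebellum, by less than passed the test (0.65 ± 0.30, adjusted p = 0.119). Ldhb had levels of 10.72, 11.03 and 11.47 in MBs, against 11.63 and 11.57 in GNPs and 12.86 and 12.88 in cerebellum.

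Ldhb fell by 1.83 on the log2 scale against cerebellum (SE 0.16, adjusted p = 9.36e-06) and by 0.55 against GNPs (adjusted p = 0.0228). The smaller difference did not hold without CGNP_2698 (adjusted p = 0.137) or CGNP_2705 (adjusted p = 0.101), nor for the probe set of highest signal (-0.27, adjusted p = 0.334), nor with quantile scaling (-0.42, adjusted p = 0.0776). The ratio of Ldha to Ldhb was 0.07 to 1.40 in MBs, with a median of 0.41, against 0.13 and 0.28 in GNPs and -1.84 and -1.94 in cerebellum. It was higher than in cerebellum by 2.47 (exact permutation p = 0.0222, adjusted p = 0.04) and overlapped with GNPs (0.38, exact permutation p = 0.356).

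Slc16a1 encodes the monocarboxylate transporter MCT1. It had levels of 6.39, 6.63 and 6.90 in MBs (lowest, median and highest), against 6.06 and 5.94 in GNPs and 6.74 and 7.002 in cerebellum. The MBs were above GNPs by 0.65 ± 0.14 (adjusted p = 0.0047, and 0.0568 without CGNP_2705) and overlapped with cerebellum (-0.21 ± 0.14, adjusted p = 0.295). Its probe set 1446274_at was at or close to the floor throughout and dilutes the mean, while 1415802_at rose by 1.31 against GNPs.

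Slc16a1 is also a transporter of brain endothelium. Endothelial markers averaged 2.77 to 4.71 in MBs, 2.67 and 2.59 in GNPs and 4.85 and 4.88 in cerebellum, and Pecam1, Cdh5, Tek and Kdr were close to the floor in GNPs. None of the 6 passed the test between MBs and GNPs, and their part in the Slc16a1 values was not tested. Slc16a3, which encodes the exporter MCT4 of glycolytic cells, was at the floor in all 12 samples, at 2.20. The log2 ratio of Slc16a1 to Slc16a3 (4.19 to 4.70 in MBs, 3.86 and 3.74 in GNPs and 4.53 and 4.80 in cerebellum) therefore shows the level of Slc16a1 alone.

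The glucose transporters did not rise in MBs. Slc2a1 (GLUT1), the transporter of glia, endothelium and most dividing cells, had levels of 7.67, 8.17 and 8.71 in MBs (lowest, median and highest), against 8.01 and 8.36 in GNPs and 9.66 and 9.84 in cerebellum. MBs overlapped GNPs (-0.04 ± 0.25, adjusted p = 1.0) and were all below cerebellum, by 1.60 (SE 0.25, adjusted p = 0.000462).

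Slc2a3 (GLUT3), the neuronal transporter, was close to the floor in all MBs, at 2.28, 2.31 and 2.34 (lowest, median and highest), against 5.20 and 5.45 in GNPs and 3.40 and 4.16 in cerebellum. This mean fell by at least 3.01 on the log2 scale against GNPs (adjusted p = 2.47e-07) and by at least 1.47 against cerebellum (adjusted p = 1.97e-05). It comes from 2 probe sets of weak signal, which fell by 3.83 (1421924_at) and by 2.20 (1427770_a_at) against GNPs. A further 2, left out of the mean for the suffixes s and x that mark a possible match to other transcripts, read far higher: 1437052_s_at averaged 10.52 in MBs, 12.60 in GNPs and 12.02 in cerebellum. It fell by 2.08 against GNPs and by 1.51 against cerebellum, and 1455898_x_at had log2 differences of -2.07 and -1.35, so all 4 probe sets were lower in MBs but only 2 put them close to the floor.

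The ratio of Slc2a1 to Slc2a3 was 5.38 to 6.43 in MBs, against 2.81 and 2.91 in GNPs and 6.26 and 5.68 in cerebellum. With this mean of Slc2a3, close to the floor in MBs, it was higher in MBs than in GNPs by at least 2.97 (exact permutation p = 0.0222, adjusted p = 0.04). It overlapped with cerebellum (-0.14, exact permutation p = 0.622). The difference from GNPs depends on the probe sets: it was 2.51 with all probe sets averaged and 2.30 for those of highest signal. Slc2a1 itself differed from GNPs by -0.04, so the ratio mainly repeats the fall of Slc2a3.

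**Figure D3:**
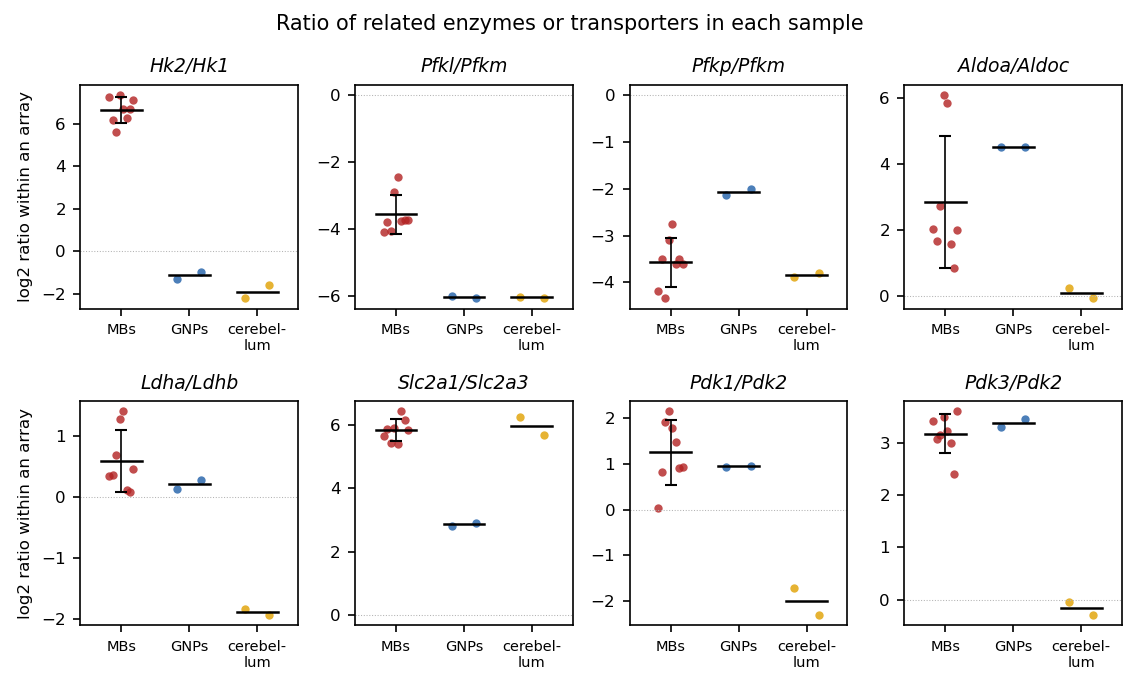
Log2 ratio within each array (y axis) for 8 pairs of related genes in MBs (red, n = 8), GNPs (blue, n = 2) and cerebellum (yellow, n = 2). Points are samples, black lines group means, and the bar on the MBs is 1 SD. The Hk2 to Hk1 ratio is above 5 in every MB and below 0 in every normal sample, while the Aldoa to Aldoc ratio shows 2 MBs near 6 and 6 below 3.

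Pyruvate dehydrogenase passes pyruvate to the citric acid cycle, and its kinases switch it off. Pdha1, its catalytic subunit, had levels of 8.26, 9.64 and 10.01 in MBs (lowest, median and highest), against 11.08 and 11.17 in GNPs and 10.76 and 10.59 in cerebellum. It fell by 1.62 against GNPs (SE 0.38, adjusted p = 0.00704) and by 1.17 against cerebellum (adjusted p = 0.0312), with all MBs below all normal samples. Its 2 probe sets differed in size: the log2 differences were -0.84 and -0.57 for 1418560_at, the stronger, and -2.41 and -1.76 for 1449137_at. The lowest value is that of tumor MB_706, the tumor with the high 3′ to 5′ difference, and rests on 1 probe set: 1449137_at was 6.01 there and 8.04 to 9.06 in the other MBs. Several single samples ended the call: the adjusted p was 0.0603 without CGNP_2705 in the first comparison, and 0.05 without tumor MB_1206, 0.174 without WC_2646 and 0.113 without WC_2647 in the second.

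Pdk2, the kinase found most widely, had levels of 3.89, 4.12 and 4.49 in MBs (lowest, median and highest), against 4.12 and 4.11 in GNPs and 7.20 and 7.54 in cerebellum. MBs and GNPs could not be separated (-0.02 ± 0.14, adjusted p = 1.0), and MBs were below cerebellum by 3.27 (SE 0.14, adjusted p = 5.17e-08). The value 4.1155 recurred in 4 MBs and 1 GNP sample, so the lower groups appear to sit on a plateau of this probe set and the difference may be understated.

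Pdk1, a kinase gene induced by low oxygen, varied among tumors more than between groups. Its level was 3.92, 5.32 and 6.41 in MBs (lowest, median and highest), against 5.04 and 5.07 in GNPs and 5.49 and 5.24 in cerebellum, and neither comparison passed (0.29 ± 0.54 and -0.02 ± 0.54, adjusted p = 0.846 and 1.0). Its probe sets disagreed: 1423747_a_at was higher in MBs by 1.36 than in GNPs and by 1.03 than in cerebellum, whereas 1435836_at was lower by 0.45 and by 1.67, and 1434974_at was at the floor in all samples. Pdk3 was 6.52, 7.28 and 7.72 in MBs, against 7.41 and 7.56 in GNPs and 7.16 and 7.25 in cerebellum, and did not pass either test (-0.22 ± 0.25 and 0.06 ± 0.25, adjusted p = 0.65 and 1.0).

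The ratios to Pdk2 separated MBs from cerebellum. Pdk1 to Pdk2 was 0.04 to 2.15 in MBs, against 0.93 and 0.95 in GNPs and -1.71 and -2.30 in cerebellum. Pdk3 to Pdk2 was 2.41 to 3.60 in MBs, against 3.29 and 3.45 in GNPs and -0.04 and -0.29 in cerebellum. The differences from cerebellum were 3.26 and 3.34 (exact permutation p = 0.0222, adjusted p = 0.04 each), and those from GNPs, 0.31 and -0.20, overlapped (exact permutation p = 0.6 and 0.467). Pdk1 and Pdk3 themselves differed from cerebellum by -0.02 and 0.06, so both ratios mainly repeat the fall of Pdk2.

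The 3 measured genes of the pentose phosphate pathway fell against GNPs and did not fall against cerebellum. Pgd, which makes NADPH from 6-phosphogluconate, had levels of 8.47, 8.62 and 8.78 in MBs (lowest, median and highest), against 9.19 and 9.09 in GNPs and 7.65 and 7.12 in cerebellum. MBs lay between the normal groups without overlap, 0.51 ± 0.12 below GNPs (adjusted p = 0.0083) and 1.24 ± 0.12 above cerebellum (adjusted p = 2.04e-05). The difference from GNPs did not hold without CGNP_2698 (adjusted p = 0.0819) or for the probe set of highest signal (-0.20, adjusted p = 0.366).

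Tkt and Taldo1, which shuttle carbons between sugars in the non-oxidative branch, had the same position against GNPs. Tkt ranged over 6.69 to 7.50 in MBs, against 8.10 and 8.08 in GNPs and 6.54 and 6.94 in cerebellum. It fell by 1.01 against GNPs (adjusted p = 0.00482) and overlapped with cerebellum (0.33 ± 0.22, adjusted p = 0.294). Taldo1 ranged over 10.61 to 11.25 in MBs, against 11.50 and 11.54 in GNPs and 11.07 and 11.13 in cerebellum. It fell by 0.53 against GNPs (adjusted p = 0.0121, but 0.0664 without CGNP_2698 and 0.0883 without CGNP_2705) and overlapped with cerebellum (-0.11 ± 0.14, adjusted p = 0.683).

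Between the normal tissues, 3 of the 26 genes were higher in GNPs than in cerebellum (Slc2a3, Pgd and Tkt), 8 were lower (Pfkl, Pfkm, Eno2, Pkm, Ldhb, Slc2a1, Slc16a1 and Pdk2) and 15 did not pass, against 14.9% of all genes higher and 13.6% lower. The groups did not overlap for 11 higher genes (31.5% of all genes) and 12 lower ones (27.8% of all genes). The median difference of the 26 genes was -0.02. Pgd was higher in GNPs by 1.76 ± 0.16 (SE, adjusted p = 2.32e-05), Slc2a3 by 1.55 ± 0.18 (adjusted p = 0.000163) and Tkt by 1.34 ± 0.28 (adjusted p = 0.00522). For Slc2a3 the probe set of highest signal gave 0.57 (adjusted p = 0.0775). None of these 3 passed the methods' t-test, the plain test the study names, after adjustment over all genes (adjusted p = 0.139 for Slc2a3, 0.0773 for Pgd and 0.0743 for Tkt).

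Eno2 was lower in GNPs than in cerebellum by 4.09 ± 1.24 (adjusted p = 0.0331), a call that was lost without any 1 of the 4 normal samples (adjusted p = 0.144 without CGNP_2698, 0.0823 without CGNP_2705, 0.14 without WC_2646 and 0.0897 without WC_2647). Pdk2 was lower by 3.26 ± 0.18 (adjusted p = 6.64e-07) and Slc2a1 by 1.57 ± 0.32 (adjusted p = 0.0045). The methods' t-test, adjusted, did not pass Eno2 (0.0565), Slc2a1 (0.0633) or Slc16a1 (0.0844). Pfkl, lower by 1.36, was also lost without any 1 of them, at adjusted p = 0.0586 to 0.0853. Hk2 and Ldha were higher in both GNP samples without passing (0.93 ± 0.41 and 0.82 ± 0.39, adjusted p = 0.133 and 0.154), and Aldoc was lower (-4.23 ± 1.48, adjusted p = 0.0609). Since all 12 samples share the estimate of spread, 2 of these depended on single tumors: without tumor MB_1206 the adjusted p of Hk2 was 0.0396, and without tumor MB_1207 or MB_1224 that of Aldoc was 0.019 or 0.038.

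Among the 8 MBs, the 19 members with a mean level above 5 had a median SD of 0.36, against 0.27 over the 8289 genes above that level. Pgd (SD 0.11) was the steadiest of the 19 and Aldoc (SD 1.73) and Pdk1 (SD 0.79) the most variable. Tumor MB_706 had the lowest value of the 8 MBs for 8 of the 19 (Aldoa, Tpi1, Pgk1, Pgam1, Ldha, Slc16a1, Pdk3 and Pdha1), against 20.0% of the 8289 genes. The part of RNA length in these was not tested. Tumors MB_1207 and MB_1224 had the highest value for 5 each: Hk2 (12.38), Tpi1 (11.41), Pkm (11.36), Slc16a1 (6.90) and Tkt (7.50) in tumor MB_1207, and Pgk1 (11.88), Pgam1 (11.84), Ldha (12.26), Pgd (8.78) and Taldo1 (11.25) in tumor MB_1224. For all 8289 genes, 19.5% were highest in tumor MB_1207 and 13.2% in tumor MB_1224.

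Each of these tumors also had the lowest value for 2 of the 19, Aldoc and Taldo1 in tumor MB_1207 and Pfkm and Slc2a1 in tumor MB_1224. Hk2 was lowest in tumor MB_1206 (10.92), where Aldoa (10.82) and Pdk1 (6.41) were highest.

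**Figure D4:**
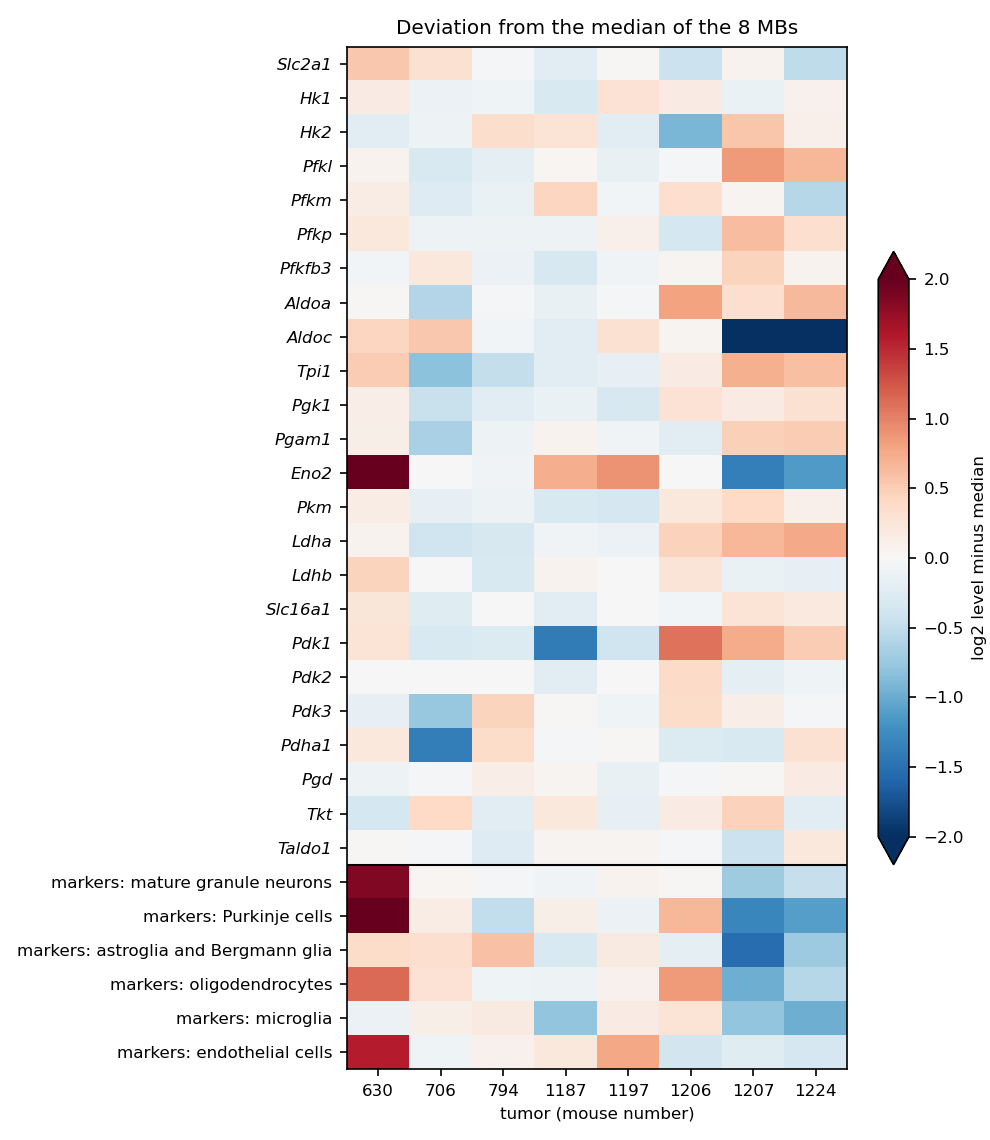
Log2 level of 24 genes (upper rows) and mean level of 6 lists of cell type markers (lower rows) in each of the 8 MBs (columns, by mouse number), as the difference from the median of the 8. Red is above and blue below the median, and colors end at -2 and 2. Slc2a3 and Slc16a3, close to the floor in all MBs, are left out. Aldoc and Eno2 are blue in tumors MB_1207 and MB_1224 together with neuronal and glial markers, while Tpi1, Pgam1 and Ldha are red there and blue in tumor MB_706.

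Other genes of the same pathways were taken from 7 lists of 80 genes, of which 75 were measured. Against GNPs, 16 rose in MBs and 16 fell (18.7% and 18.6% of all genes), and against cerebellum 8 rose and 27 fell (22.2% and 21.8% of all genes). Without tumor MB_706 these counts were 16 and 19, and 8 and 25. The citric acid cycle had no gene that rose: 7 of 11 fell against GNPs and 10 of 11 against cerebellum, where 18.6% and 21.8% of all genes fell, and 26.8% and 29.4% of the genes above 5. Among them were Ogdh (log2 differences -1.37 and -1.90, adjusted p = 0.000118 and 7.67e-06), Idh3a (-1.01 and -1.40, adjusted p = 3.64e-05 and 2.33e-06) and Cs, the citrate synthase (-0.82 and -0.59, adjusted p = 0.000388 and 0.00245). Mpc1, a subunit of the carrier that brings pyruvate into mitochondria, fell as well (-1.16 and -1.11, adjusted p = 0.00378 and 0.004).

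Of 9 further pentose phosphate and ribose genes, 3 rose against GNPs (18.7% of all genes) and 4 against cerebellum (22.2%), none fell, and 6 and 5 did not pass the test. Prps2, which activates ribose phosphate for nucleotide synthesis, was 6.75, 7.40 and 7.83 in MBs (lowest, median and highest), against 5.11 and 4.98 in GNPs and 5.51 and 5.78 in cerebellum. All MBs were above all normal samples, by 2.33 ± 0.23 on average against GNPs (adjusted p = 2.69e-05). Prps1 and Rpia rose in both comparisons as well. Pgls, the lactonase before Pgd, ranged over 9.22 to 9.78 in MBs, against 9.38 and 9.42 in GNPs and 7.51 and 7.39 in cerebellum, and rose against cerebellum by 2.05 (adjusted p = 3.81e-07).

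Adpgk, an ADP-dependent glucokinase, ranged over 5.60 to 7.87 in MBs, against 4.90 and 4.82 in GNPs and 3.67 and 4.24 in cerebellum, a rise of 2.53 ± 0.51 over cerebellum (adjusted p = 0.00237). Tigar, a phosphatase that lowers fructose 2,6-bisphosphate and was first described as induced by p53, was 5.62 to 6.69 in MBs, against 5.71 and 5.79 in GNPs and 4.09 and 4.29 in cerebellum. It rose by 1.86 ± 0.29 against cerebellum (adjusted p = 0.000404) and overlapped with GNPs.

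Of 12 genes of the hypoxia-inducible factor pathway and its targets outside glycolysis, 5 rose against GNPs and 1 fell (18.7% and 18.6% of all genes), and 5 fell against cerebellum with none rising (21.8% and 22.2%). Epas1, which encodes the factor HIF-2α, ranged over 4.51 to 6.20 in MBs, against 3.14 and 3.56 in GNPs and 6.90 and 6.77 in cerebellum. MBs lay between the normal groups, 2.17 ± 0.43 above GNPs (adjusted p = 0.00266). Ankrd37, a hypoxia target, ranged over 4.42 to 6.19 in MBs, against 2.53 and 3.53 in GNPs and 6.20 and 5.73 in cerebellum, a rise of 2.08 ± 0.50 over GNPs (adjusted p = 0.00765). Ndrg1, a hypoxia target and a gene of oligodendrocytes, was 3.02 to 4.97 in MBs, against 3.44 and 3.87 in GNPs and 7.04 and 7.50 in cerebellum, and fell by 3.19 against cerebellum (adjusted p = 0.000274). Car9 was at the floor in all MBs and fell against cerebellum (log2 difference -2.998, a lower bound of its size, adjusted p = 3.87e-07). Oligodendrocyte markers, all 6 lower in MBs than in cerebellum, averaged 3.35 to 5.45 in MBs and 9.48 and 9.44 in cerebellum, and their part in Ndrg1 was not tested. Bsg, the chaperone of the lactate transporters and a protein of endothelium, fell by 2.19 against cerebellum (adjusted p = 0.00239).

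The largest falls against GNPs outside the 26 genes were those of muscle forms: Eno3 by 3.60 (adjusted p = 3.95e-05), Fbp2 by at least 3.38 (adjusted p = 1.83e-06) and Pgam2 by at least 2.02 (adjusted p = 0.00251). Eno3 was 5.51 to 7.12 in MBs, against 9.49 and 10.28 in GNPs and 6.36 and 6.20 in cerebellum. GNPs thus stood above both other groups, by 3.60 over cerebellum (adjusted p = 0.000286). Of 8 skeletal muscle markers, a list added after these values were seen, Tnnc2 was 8.74 and 9.49 in GNPs and Acta1 5.95 and 6.76, while Ckm, Tnnt3, Myh4, Actn3 and Atp2a1 were close to the floor there. The list averaged 2.47 to 2.90 in MBs, 3.66 and 3.87 in GNPs and 2.53 and 2.62 in cerebellum, and its part in the levels of Eno3, Fbp2 and Pgam2, or of Pfkm and Aldoa in GNPs, was not tested. Between the normal tissues, 7 of the 75 other genes were higher in GNPs than in cerebellum and 15 were lower, against 14.9% and 13.6% of all genes. Eno3, Fbp2 (by at least 3.28, adjusted p = 1.49e-05) and Pgam2 (by at least 2.01, adjusted p = 0.013) had the largest rises, and Ndrg1 (-3.61, adjusted p = 0.00118), Epas1 (-3.49, adjusted p = 0.000912) and Car9 (at least -2.99, adjusted p = 5.2e-06) the largest falls.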

How the data were processed

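The authors normalized the Affymetrix mouse arrays by GCRMA (R library affy), and the file deposited holds log2 expression per probe set and array. The genome build is not given in the sources used here. The file has 45101 probe sets: 64 controls were dropped, and 34945 paired with 1 gene, 932 with several and 9160 with none in the GEO platform annotation. A gene was the mean of its own probe sets without the suffixes s or x (all, for the 290 genes with no other), which gave 18193 genes, with no filter on level.

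Differences were tested with limma 3.58.1 (lmFit and eBayes) in R 4.3.3, in 1 model of 3 groups over 12 samples, two-sided, and p-values were adjusted over the 18193 genes (Benjamini-Hochberg, threshold 0.05). SE is that of the moderated fit. Ratios of related genes were compared by exact permutation tests over samples, with 45 regroupings, adjusted over 18 tests. GNPs and cerebellum, 2 against 2, cannot pass such a test. The procedure was tested on simulated data. Members and lists were chosen with earlier results of these data known. Values per sample are given for the related gene pairs and the 3 largest rises and falls of each comparison, and other pathway genes are named for the 3 largest of each direction, with a few more as examples of their list. Promoter windows and gene names are from RefSeq (GRCm38.p6). Alternatives were other probe set averages, quantile or median scaling, array weights, a robust trend, a level filter, a minimum fold of 1.5, the methods' t-test, pooled normal tissue and leaving out each sample.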

Additional observations from a re-analysis of the deposited data

Results flagged for a closer look

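Over the 26 genes and 9 ratios in the 8 MBs, 2 values lay far from the other 7 by Dixon's criterion, which chance meets in about 1 of 20 groups. Pdha1 was 8.26 in tumor MB_706, where the nearest tumor was at 9.33. The 3′ to 5′ difference of the array controls was highest in the same tumor, and its part in this value was not tested. Pdk2 was 4.49 in tumor MB_1206, with the nearest tumor at 4.12, the value that recurred in 4 MBs.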

How the results depend on the processing

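No paired analysis was possible because the groups share no mouse number. Counts changed by over 1.5 times as follows. With a minimum fold of 1.5, 1 gene rose and 7 fell in MBs against GNPs, and 2 fell in GNPs against cerebellum. With the methods' t-test, 6 were higher in GNPs than in cerebellum unadjusted and 2 (Ldha and Taldo1) after adjustment, neither among the 3 that passed limma. Leaving out single samples gave 1 to 3 rises and 8 to 13 falls against GNPs. With GNPs and cerebellum pooled, 2 ratios did not overlap with MBs. Pooling sets MBs against GNPs and cerebellum together, a different comparison from that with either alone. Directions turned for genes that did not pass the test, except Pgd against GNPs, which passed: pooled normal tissue gave 0.37 (adjusted p = 0.476). Pgd in MBs lay below GNPs and above cerebellum, so this is not a reversal of its fall against GNPs. Against GNPs, pooling also gave Pfkl -0.41, Pkm -0.19, Ldha 0.24 and Slc16a3 -0.0005, and against cerebellum Slc16a1 0.22, Pdk1 0.14, Pdk3 -0.076 and Tkt -0.34. The probe set of highest signal gave Slc2a1 0.21 against GNPs, Pdk1 1.03 and Tkt -0.18 against cerebellum, and Hk1 -0.11 and Pfkp -0.075 between GNPs and cerebellum. Shifted medians gave Slc16a3 -0.12 against GNPs and 0.079 between GNPs and cerebellum, and Tpi1 0.050 there. Quantile scaling gave Pdk3 -0.048 and Slc16a3 0.0001 against cerebellum. Over the fits that leave out 1 sample, values crossed 0 for Slc2a1 (-0.21 to 0.14) and Pdk2 (-0.073 to 0.0135) against GNPs, Pdk1 (-0.17 to 0.19), Pdk3 (-0.0007 to 0.17) and Slc16a3 (-0.0027 to 0.0002) against cerebellum, and Pfkfb3 (-0.0558 to 0.14) and Tpi1 (-0.0663 to 0.0052) between GNPs and cerebellum. The cause of the turns without pooling was not tested. Hk2, Hk1, Pfkm, Pfkp, Aldoa, Tpi1 and Slc2a3 passed under every alternative run in both MB comparisons. For Aldoa, no alternative could leave out probe sets with the suffix x, since it has no others. Depth is not counted on arrays, and probe sets close to the floor give bounds only.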
